A study of Mus musculus with 6 samples.

Results

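The serpin genes were described in the colon of wild-type and IL10-/- mice. Members were the rows of the authors' gene table annotated as protein-coding whose symbol begins with Serpin followed by a clade letter from a to i. This gave 61 of the 54532 genes in the table, 24 in clade a, 26 in clade b, 3 in clade e, 2 each in clades f and i, and 1 each in clades c, d, g and h. Another 7 serpin rows carry an annotation other than protein-coding and were left out. The samples were whole colon at postnatal day 56, all labelled C57BL/6. There were 3 libraries labelled WT (genotype wild type) and 3 labelled IL10-KO (genotype IL10-/-), called Il10 knockout below, always in the sense of libraries so labelled. No source used here gives the allele, the health of the animals, or says that each library is a different mouse. The p-values therefore weigh library-to-library spread, which may be technical. Values are always listed in the order of libraries 1, 2 and 3 of a group. In whole tissue, fewer cells of a type and less RNA per cell cannot be told apart.

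Most serpins inhibit serine or cysteine proteases by a suicide mechanism. The protease cuts an exposed loop of the serpin, the loop inserts into the serpin's central sheet, and the protease is trapped in a covalent complex. Some members have lost this activity and act instead as hormone carriers or as chaperones. Clade a holds secreted inhibitors that are made largely by the liver, among them the antitrypsin (Serpina1) and antichymotrypsin (Serpina3) families, which expanded by local duplication in the mouse. Clade b members lack a classical signal peptide, act mostly inside the cell and protect leukocytes and epithelia from neutrophil proteases, granzymes and leaked lysosomal proteases. The other clades hold regulators of coagulation, fibrinolysis and complement, a neural inhibitor, and the collagen chaperone of the endoplasmic reticulum.

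Read totals recovered from the values were 13107941 to 15797928 per library. The mitochondrial share of reads was 43.4% for WT library 3 and 8.61% to 21.96% elsewhere. Il10 itself was at 0.757, 0.173 and 0.177 FPKM in the WT group against 13.8, 10.6 and 14.5 FPKM in the group labelled knockout, counted over the whole gene (log2 fold change 3.36, SE 0.25, limma adjusted p = 0.0092). Il10 RNA was thus higher, not lower, under the knockout label. The deleted part is not given, so this does not check the labels. Pancreatic Ctrb1 was at 45.7 FPKM in Il10 knockout library 3 and at 0 in all others, and the 15 liver and pancreas markers found summed to 21.3 to 73.6 FPKM in WT and 23.1 to 105.5 FPKM in the knockout libraries. Values are in FPKM, fragments per kilobase of gene length, scaled to a library size. The size implied by the values was not the recovered read total. It was 1.23, 0.836 and 0.940 times that total in the WT group and 0.885, 1.07 and 1.15 times in the knockout group.

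Serpin RNA in these colons came from few of the genes. No read was recovered in any library for 24 of the 61 members (39.3%), against 21.02% of all 22046 protein-coding genes in the table. Those 24 were Serpina1a, Serpina1f, Serpina3a, Serpina3j, Serpina5, Serpina7, Serpina11 and Serpina16 in clade a, 15 clade b genes, and the pancreatic gene Serpini2. The 15 were Serpinb2, Serpinb3a, Serpinb3b, Serpinb3c, Serpinb3d, Serpinb6c, Serpinb6d, Serpinb6e, Serpinb7, Serpinb9c, Serpinb9d, Serpinb9f, Serpinb9g, Serpinb12 and Serpinb13. A count of 0 over the 6 libraries allows a mean of up to 0.0108 to 0.0284 FPKM, depending on gene length and counting 3 reads as the limit. A further 25 members had reads but a mean below 1 FPKM. The remaining 12 had a mean of at least 1 FPKM over the 6 libraries and were tested.

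The expressed members lay among neighbours with few or no reads. On GRCm38, 23 clade a genes lie within 799.5 kb of chromosome 12 (103614786 to 104414329), and 3 of them, all Serpina3 genes, passed the filter. Of the 15 clade b genes within 1161 kb of chromosome 13 (32842092 to 34002794), 4 passed it. Of the 11 clade b genes within 749.3 kb of chromosome 1 (106861173 to 107610484), 1 passed it, namely Serpinb5.

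Serpina3 genes had the 3 highest log2 fold changes of the tested members, and the sequences upstream of 5 of them are shown because closely related copies had very different levels. Each is the 250 bases before the start of the gene in RefSeq (GRCm38.p6), 5′ to 3′ on the strand of the gene. Capitals mark matches to the palindrome bound by STAT factors, TTCNNNGAA, and to a loose kappaB pattern, GGGNNNNNCC, on either strand. The windows are Serpina3f at chr12:104214294-104214543 (plus strand), Serpina3g at chr12:104235897-104236146 (plus), Serpina3i at chr12:104262872-104263121 (plus), Serpina3n at chr12:104406458-104406707 (plus) and Serpina3c at chr12:104153873-104154122 (minus).
Serpina3f: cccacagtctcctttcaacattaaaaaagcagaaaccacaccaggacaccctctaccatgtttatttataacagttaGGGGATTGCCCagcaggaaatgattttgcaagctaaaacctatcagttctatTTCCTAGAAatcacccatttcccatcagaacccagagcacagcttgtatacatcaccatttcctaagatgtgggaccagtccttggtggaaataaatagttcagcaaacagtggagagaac
Serpina3g: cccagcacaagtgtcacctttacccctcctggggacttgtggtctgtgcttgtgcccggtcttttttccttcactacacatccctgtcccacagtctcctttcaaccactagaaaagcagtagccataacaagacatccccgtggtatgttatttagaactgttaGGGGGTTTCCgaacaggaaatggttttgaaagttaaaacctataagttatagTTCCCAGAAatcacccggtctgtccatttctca
Serpina3i: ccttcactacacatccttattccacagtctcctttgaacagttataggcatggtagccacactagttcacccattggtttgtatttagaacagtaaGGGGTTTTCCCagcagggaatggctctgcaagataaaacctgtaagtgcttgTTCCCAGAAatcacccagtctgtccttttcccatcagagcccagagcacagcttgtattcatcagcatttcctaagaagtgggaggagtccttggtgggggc
Serpina3n: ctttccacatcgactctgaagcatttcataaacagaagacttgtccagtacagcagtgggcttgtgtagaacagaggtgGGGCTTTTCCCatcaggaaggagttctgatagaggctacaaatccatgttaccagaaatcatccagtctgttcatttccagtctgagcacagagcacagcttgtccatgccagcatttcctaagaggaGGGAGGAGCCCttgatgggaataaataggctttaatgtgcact
Serpina3c: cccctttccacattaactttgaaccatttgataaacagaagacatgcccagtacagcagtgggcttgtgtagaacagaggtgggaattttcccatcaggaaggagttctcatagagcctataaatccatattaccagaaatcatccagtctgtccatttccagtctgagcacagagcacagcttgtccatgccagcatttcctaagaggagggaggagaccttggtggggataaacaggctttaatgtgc

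The STAT palindrome was found upstream of Serpina3f, Serpina3g and Serpina3i and not in the windows of Serpina3n and Serpina3c. It began 121, 33 and 102 bases before the RefSeq start of these 3 genes. For Serpina3g the RefSeq start lies upstream of the gene start in the deposited annotation (104236245), while for Serpina3f and Serpina3i the starts coincide. Counted from the deposited start, the Serpina3g palindrome would lie further upstream than 33 bases. Of all 32851 RefSeq windows of 250 bases, 7.02% held it, and among the 61 windows of the 52 serpin genes found in that collection 10 windows did, from 8 genes. The other genes of the 8 were Serpinb6a and, with no read in any library, Serpina11, Serpina1f, Serpinb2 and Serpinb9c. A link between the palindrome and RNA level was not tested. Positions in the palindrome were counted from 1 at its 5′ end, with Serpina3f as the reference, whose letters there are TTCCTAGAA. Serpina3g and Serpina3i carried T5C, which leaves the palindrome in place, while Serpina3n and Serpina3c both carried C3A and T5C at the aligned position. The kappaB pattern says little, since 45.8% of all windows held it. RefSeq gives Serpina3f a second start, whose window (chr12:104214383-104214632) holds the same STAT palindrome 210 bases before that start and no kappaB match. In the windows printed, kappaB was found for Serpina3f, Serpina3g, Serpina3i and Serpina3n and not for Serpina3c. The Serpina3n and Serpina3c windows were identical at 92.7% of aligned bases (229 of 247). The share was 82.9% (126 of 152) for Serpina3f and Serpina3g and 68.5% (159 of 232) for Serpina3f and Serpina3n. The aligned lengths differ, so these shares do not compare over the whole window. A further pattern of the interferon response, GAAANNGAAA, was found upstream of Serpinb6a and Serpinb9 among the members, and in 2.98% of all windows. These matches are letters in a window, and binding was not measured.

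Among the 12 tested members, none differed between the labels at an adjusted p below 0.05 in limma, a linear model fitted on log2(FPKM + 1) across 12668 genes with Benjamini-Hochberg adjustment. Over all genes, 23 (0.182%) passed in the higher direction and 0 (0.0%) in the lower. At an unadjusted p below 0.05 there were 5 members higher in the Il10 knockout libraries, against 6.14% of all genes, and 0 lower, against 4.03%. Limma's voom on reads recovered from the FPKM values also called 0 members. For 6 members every Il10 knockout library lay above every WT library, a pattern seen for 8.84% of genes, and for 1 member every one lay below, seen for 7.89%. The log2 fold change (knockout minus WT) was positive for 8 of the 12, against 54.1% of all genes. Their median was 0.64, against 0.04 over all genes tested. The members were few, and a member that is low in WT could pass the filter through the knockout libraries alone, so these counts describe the 12 and not the family.

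**Figure D1:**
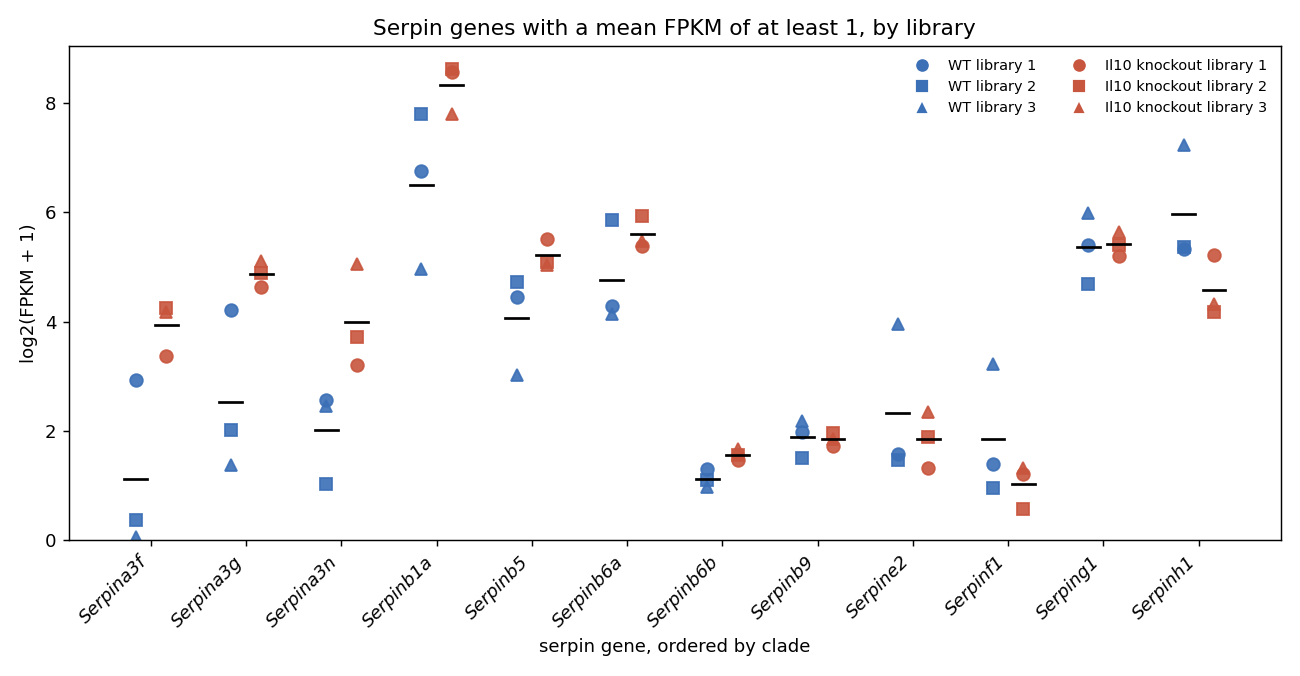
The 12 serpin genes with a mean of at least 1 FPKM are on the horizontal axis in order of clade, with log2(FPKM + 1) on the vertical axis, 1 point per library and a black line at each group's mean. Knockout points lie above all WT points for Serpina3f, Serpina3g, Serpina3n, Serpinb1a, Serpinb5 and Serpinb6b and below them for Serpinh1.

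Serpina3f, Serpina3g and Serpina3n, members of the antichymotrypsin family, had higher values in the knockout libraries. Serpina3f (ENSMUSG00000066363; chromosome 12, 104214544 to 104221129, plus strand) had values of 6.66, 0.298 and 0.0338 FPKM in the WT group against 9.41, 18.0 and 17.1 FPKM in the knockout group. WT library 1 stood close to the lowest knockout library, while the other WT libraries were near 0. Limma gave a log2 fold change of 2.81 (SE 0.75, limma adjusted p = 0.319). Without WT library 1 it was 3.72, and Serpina3f was then the 1 member called (adjusted p = 0.0499). It was 4.34 with a pseudocount of 0.1, 4.77 with voom and 1.66 with a weight for each library.

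Serpina3g, also called Spi2A, is expressed by activated lymphocytes and macrophages and inhibits lysosomal cathepsins in the cytosol. Serpina3g (ENSMUSG00000041481; chromosome 12, 104236245 to 104241939, plus strand) had values of 17.5, 3.02 and 1.58 FPKM in the WT group against 24.0, 28.7 and 33.6 FPKM in the knockout group. As with Serpina3f, WT library 1 was the highest of its group. The mean was 28.7 ± 4.80 against 7.36 ± 8.80 FPKM (SD, n = 3). The log2 fold change of Serpina3g was 2.35 (SE 0.70, limma adjusted p = 0.356), and 1.21 with a weight for each library. With the FPKM values rescaled to TPM, a length-scaled unit with the same total in every library, WT library 1 overlapped the knockout libraries for Serpina3f and Serpina3g.

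Serpina3n, a secreted inhibitor of granzyme B and neutrophil proteases and an acute-phase gene, had a different order of libraries. Serpina3n (ENSMUSG00000021091; chromosome 12, 104406729 to 104414329, plus strand) had values of 4.92, 1.03 and 4.46 FPKM in the WT group against 8.21, 12.2 and 32.5 FPKM in the knockout group. The third knockout library was far above the rest, and WT library 2 was the lowest. The difference on the log2 scale was 1.99 (SE 0.60, limma adjusted p = 0.360). The Serpina3c copy, whose upstream window is nearly the same, stayed between 0 and 0.476 FPKM in every library, and 34 reads over the 6 libraries were recovered for it.

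The Serpina3 copies share sequence, so part of their reads cannot be assigned with certainty. Of all stretches of 50 bases in the GENCODE M21 transcripts of each gene, 10.6% were shared with another gene for Serpina3f, 15.5% for Serpina3g, 15.9% for Serpina3i, 19.1% for Serpina3m and 6.90% for Serpina3n. No source used here says how reads with several matches were counted.

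Other clade a genes were low, and they are named after their values were seen. Serpina10, the inhibitor of activated factor X that works with protein Z, was at 0.0886, 0 and 0 FPKM in the WT group against 1.52, 1.07 and 0.789 FPKM in the knockout group. The groups did not overlap, on 5 reads over the WT libraries and 171 over the knockout libraries. In a fit of all genes with any read, which holds 27418 genes, the log2 fold change of Serpina10 was 1.03 (SE 0.17, limma adjusted p = 0.234). That fit called 0 of the 37 members with reads, against 0.0146% of all its genes, and at an unadjusted p below 0.05 there were 8 members higher, against 4.46% of its genes, and 0 lower, against 2.87%. In it 10 members had no overlap in the higher direction and 2 in the lower, against 6.52% and 6.93% of its genes. The members added to the 7 tested ones were Serpina10, Serpina3i, Serpina3m and Serpinb1b, all higher, and Serpini1, lower.

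Serpina3m had 0 reads in all 3 WT libraries and was at 0.0461, 1.11 and 2.25 FPKM in the knockout libraries. These values rest on 1, 30 and 63 reads, so library 3 carries most of them and library 1 is hardly above 0. The gene overlaps Serpina3k on the same strand, so these reads cannot be divided between the 2 genes with certainty. Serpina3k was at 0.181, 0.0368 and 0.150 FPKM in the WT group against 0.116, 0.0309 and 0 FPKM in the knockout group. That rests on 11 and 4 reads, and Serpina3b had 3 reads, all in WT library 1. Serpina3i was at 0.167, 0 and 0 FPKM in the WT group against 0.178, 0.486 and 0.662 FPKM in the knockout group, on 52 reads in all. The antitrypsin family includes the main plasma inhibitor of neutrophil elastase, and of the 6 genes Serpina1a to Serpina1f none had a mean above 0.206 FPKM. Their summed level was 0.576, 0 and 0 FPKM in the WT group against 1.20, 0.132 and 0.425 FPKM in the knockout libraries. Serpina9, a gene of germinal centre B cells, was at 0.776 FPKM in WT library 1, 0.0647 FPKM in Il10 knockout library 1 and 0 in the other 4 libraries.

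**Figure D2:**
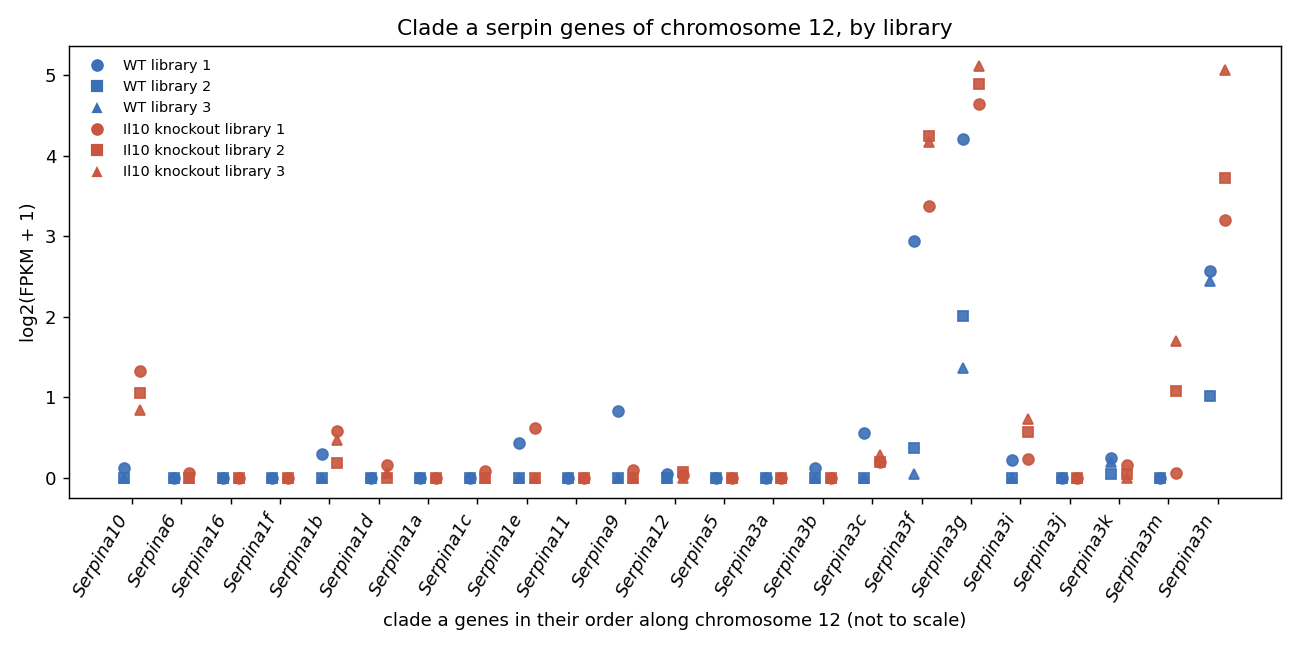
The 23 clade a genes of chromosome 12 are shown in their order along the chromosome, with log2(FPKM + 1) on the vertical axis and 1 point per library. Values well above 0 are found mainly at Serpina3f, Serpina3g and Serpina3n, while 7 of the 23 genes have no reads.

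The intracellular clade b held the most abundant serpin, Serpinb1a, which inhibits neutrophil elastase, cathepsin G and proteinase 3. Serpinb1a (ENSMUSG00000044734; chromosome 13, 32842092 to 32851185, minus strand) had values of 108, 221 and 30.0 FPKM in the WT group against 381, 393 and 224 FPKM in the knockout group. WT library 2 lay just below the lowest knockout library, and WT library 3 was far below the rest. The mean was 332 ± 94.3 against 119.8 ± 96.3 FPKM (SD, n = 3). The log2 fold change of Serpinb1a was 1.83 (SE 0.72, limma adjusted p = 0.471), 1.05 without WT library 3 and 2.47 without WT library 2. The gene made up 40.1%, 58.3% and 9.94% of the summed serpin FPKM in the WT group against 64.3%, 63.7% and 47.9% in the knockout libraries. Its copies Serpinb1b and Serpinb1c had means of 0.0808 and 0.0731 FPKM, and 2.81% of the 50-base stretches of Serpinb1a were shared with other genes.

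Serpinb5 (maspin), an epithelial serpin without known protease inhibition, showed the same order of groups. Serpinb5 (ENSMUSG00000067006; chromosome 1, 106861173 to 106883348, plus strand) had values of 20.95, 25.6 and 7.09 FPKM in the WT group against 44.9, 33.2 and 32.0 FPKM in the knockout group. Limma put the log2 fold change at 1.15 (SE 0.48, limma adjusted p = 0.489), and 0.63 without WT library 3. The lowest WT library was again library 3.

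Serpinb6a, an inhibitor of cathepsin G and trypsin-like proteases, did not separate the groups. Serpinb6a (ENSMUSG00000060147; chromosome 13, 33917918 to 34002794, minus strand) had values of 18.4, 57.0 and 16.7 FPKM in the WT group against 41.1, 59.9 and 43.4 FPKM in the knockout group. WT library 2 lay above 2 of the knockout libraries. For Serpinb6a the log2 fold change was 0.84 (SE 0.50, limma adjusted p = 0.622). The value became 0.53 when WT library 3 was left out, 1.38 when WT library 2 was, and 1.34 with a weight for each library. The gene overlaps Nqo2 and Ripk1 on the other strand, and no strand setting is given. Serpinb6b (ENSMUSG00000042842; chromosome 13, 32965209 to 32979067, plus strand) had values of 1.45, 1.14 and 0.958 FPKM in the WT group against 1.75, 1.94 and 2.17 FPKM in the knockout group. These groups did not overlap in FPKM, but they did in TPM. The log2 fold change of Serpinb6b was small at 0.44 (SE 0.22, limma adjusted p = 0.543), and it was 0.69 with a pseudocount of 0.1 and 0.73 with voom.

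Serpinb9, the granzyme B inhibitor with which cytotoxic lymphocytes and antigen-presenting cells protect themselves, was nearly level. Serpinb9 (ENSMUSG00000045827; chromosome 13, 33003250 to 33017957, plus strand) had values of 2.93, 1.82 and 3.54 FPKM in the WT group against 2.29, 2.89 and 2.62 FPKM in the knockout group. The knockout values lay inside the WT range. Its log2 fold change was -0.04 with a 95% interval from -0.62 to 0.54, and differences within it were not detectable with these libraries. Of the other clade b genes, Serpinb8 was between 0.0767 and 0.411 FPKM in every library, and Serpinb11, Serpinb1b, Serpinb1c, Serpinb9b and Serpinb9e did not exceed 0.341 FPKM in any.

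**Figure D3:**
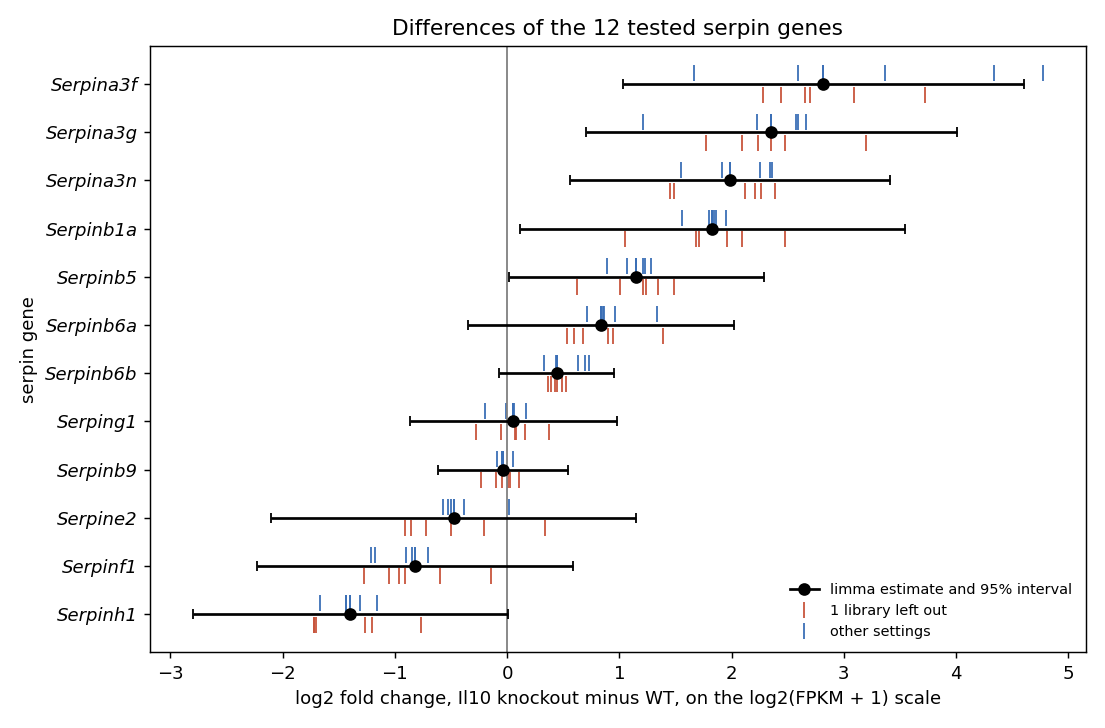
Points give limma's log2 fold change (knockout minus WT, log2(FPKM + 1) scale) for each of the 12 tested serpin genes with its 95% interval, red ticks the values with 1 library left out and blue ticks those under the other settings. The intervals of Serpina3f, Serpina3g, Serpina3n, Serpinb1a and Serpinb5 lie above 0 before adjustment over all genes.

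Serpinh1, the collagen chaperone also called HSP47, was the tested member with the lowest log2 fold change. Serpinh1 (ENSMUSG00000070436; chromosome 7, 99345376 to 99353239, minus strand) had values of 39.1, 40.1 and 149 FPKM in the WT group against 36.4, 17.2 and 19.0 FPKM in the knockout group. WT library 3 was far above the rest, and the other WT libraries were close to Il10 knockout library 1. Its log2 fold change was -1.40 (SE 0.59, limma adjusted p = 0.495), and -0.77 without WT library 3. The groups overlapped for Serpinh1 after quantile normalization. Of 18 genes in a list of collagens and collagen folding enzymes, 14 had negative and 4 positive log2 fold changes, with 0 called by limma and 0 at an unadjusted p below 0.05. Col6a1, the member of that list with the smallest p, was at 25.2, 21.1 and 46.0 FPKM in the WT group against 16.01, 11.6 and 19.8 FPKM in the knockout group (log2 fold change -0.87, limma adjusted p = 0.496).

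Serpine2 and Serpinf1 were also highest in WT library 3. Serpine2 (protease nexin-1), an extracellular inhibitor of thrombin and plasminogen activators, was at 1.98, 1.75 and 14.4 FPKM in the WT group against 1.48, 2.72 and 4.11 FPKM in the knockout group. Serpine2 (ENSMUSG00000026249) lies on chromosome 1, 79794197 to 79861180, minus strand. Its log2 fold change was -0.48 (SE 0.68, limma adjusted p = 0.855) and turned to 0.33 without WT library 3. Serpinf1 (pigment epithelium-derived factor), a secreted antiangiogenic serpin without inhibitory activity, was at 1.63, 0.931 and 8.30 FPKM in the WT group against 1.31, 0.485 and 1.48 FPKM in the knockout group. Serpinf1 (ENSMUSG00000000753) lies on chromosome 11, 75409769 to 75422701, minus strand. Its log2 fold change was -0.82 (SE 0.59, limma adjusted p = 0.688), -0.14 without WT library 3 and -1.28 without WT library 2. Serpini1 (neuroserpin), the neuronal inhibitor of tissue plasminogen activator, lay under the filter and was at 0.689, 0.312 and 2.19 FPKM in the WT group against 0.283, 0.131 and 0.143 FPKM in the knockout group. For Serpini1 all knockout libraries lay below all WT libraries, on 317 and 58 reads.

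Markers of muscle, stroma and nerve were likewise highest in WT library 3. Of 13 smooth muscle markers 13 had negative log2 fold changes (3 at an unadjusted p below 0.05, 0 called by limma), with summed levels of 1936 to 12265 FPKM in WT and 286 to 1471 FPKM in the knockout libraries. Of 8 tested fibroblast markers 7 were negative (3 at an unadjusted p below 0.05), with sums over the 10 listed genes of 69.7 to 319 and 61.3 to 96.7 FPKM. Of 10 enteric neuron and glia markers 9 were negative (5 at an unadjusted p below 0.05), with sums of 36.0 to 257 and 12.5 to 40.8 FPKM. None of these 3 lists had a gene at 0 reads, and the highest sum of each was that of WT library 3. The part of tissue composition in the serpin differences was not tested.

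**Figure D4:**
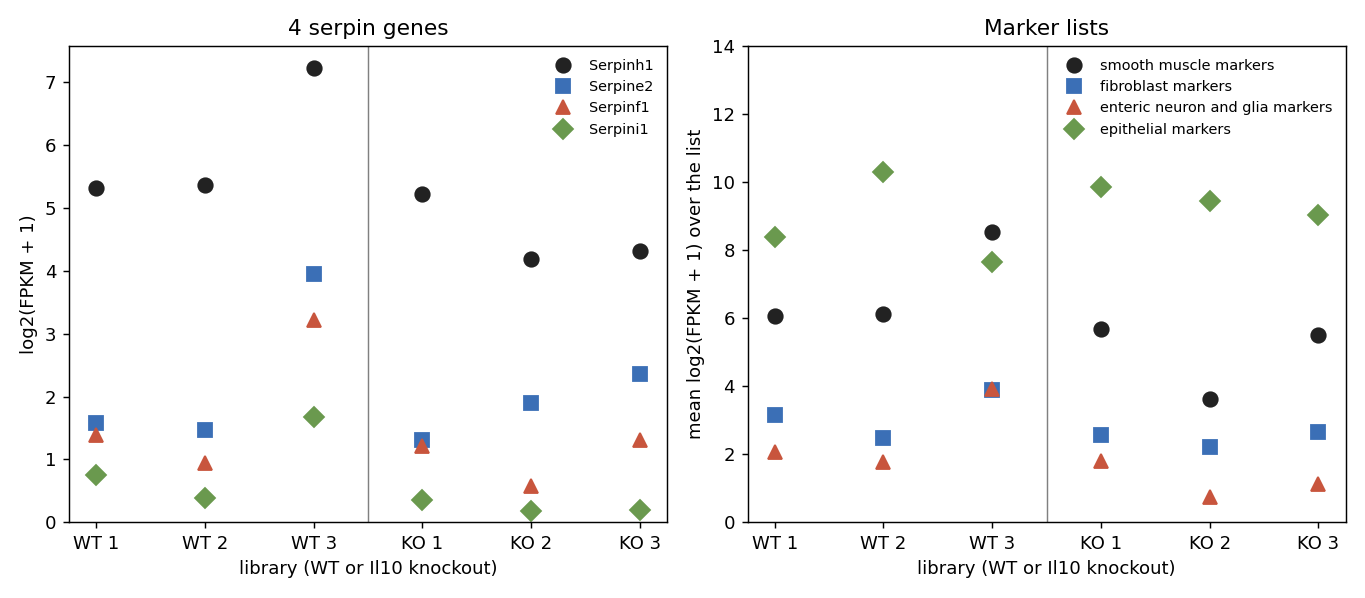
The left panel gives log2(FPKM + 1) of Serpinh1, Serpine2, Serpinf1 and Serpini1 in each library, and the right panel the mean log2(FPKM + 1) of 4 marker lists in the same libraries. WT library 3 has the highest value of the 4 genes and of the muscle, fibroblast and nerve lists, and the lowest of the epithelial list.

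Serping1, Serpinc1, Serpind1, Serpinf2 and Serpine3 had values that overlapped between the groups. Serping1, the C1 inhibitor that blocks the first complement proteases and plasma kallikrein, was at 41.4, 24.7 and 62.5 FPKM in the WT group against 35.9, 41.1 and 49.0 FPKM in the knockout group. Serping1 (ENSMUSG00000023224) lies on chromosome 2, 84765387 to 84775444, minus strand. The knockout values lay inside the WT range, and the log2 fold change was 0.06 with a 95% interval from -0.86 to 0.98. Antithrombin (Serpinc1), made mainly by the liver, was between 0.0359 and 0.168 FPKM in every library. Heparin cofactor II (Serpind1) did not exceed 0.280 FPKM, and its gene lies on the other strand of Pi4ka. Serpinf2, the plasmin inhibitor, did not exceed 0.107 FPKM, and Serpine3 had 2 reads.

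Proteases that serpins inhibit were counted from fixed lists, which also held other genes. In all lists, as among the serpins, a gene low in WT could pass the filter through the knockout libraries alone. The list of plasminogen activation and coagulation included receptors, cofactors and inhibitors. Of 14 tested genes of plasminogen activation and coagulation (29 listed), 0 were called by limma, and at an unadjusted p below 0.05 there were 2 higher and 1 lower. The urokinase receptor gene Plaur was at 0.876, 8.45 and 2.93 FPKM in the WT group against 11.7, 41.2 and 20.1 FPKM in the knockout group (log2 fold change 2.45, limma adjusted p = 0.327). F10, which encodes the factor X that Serpina10 inhibits once activated, was at 0.250, 0.0832 and 0.227 FPKM in the WT group against 0.870, 5.17 and 3.28 FPKM in the knockout group (log2 fold change 1.63, limma adjusted p = 0.327). The third was thrombomodulin (Thbd), with a log2 fold change of -0.57. Among the tested genes of this list, groups did not overlap for Plaur and F10, both higher, and for Thbd, Pros1 and Tfpi, all lower. Over all genes tested, 8.84% had no overlap in the higher direction and 7.89% in the lower. Groups overlapped for the plasminogen activator genes Plau and Plat, with log2 fold changes of 0.42 and -0.30 (limma adjusted p = 0.851 and 0.890).

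The genes of the neutrophil proteases that Serpinb1a inhibits had few or no reads, while the proteases themselves were not measured. Elane was at 0 reads in 5 libraries and at 0.312 FPKM in Il10 knockout library 3, Prtn3 did not exceed 0.496 FPKM, and Ctsg had no reads. Of 14 listed neutrophil and mast cell protease genes 2 were tested and 0 called by limma, with 0 at an unadjusted p below 0.05. Neutrophil markers were present, and of 10 tested (14 listed) 10 had positive log2 fold changes (9 at an unadjusted p below 0.05). Limma called 2 of them, S100a8 and S100a9. Markers near 0 in WT passed the filter through the knockout libraries alone, so their direction was set by the filter. Under the filter, Ngp, Cxcr1 and Trem1 had higher means in the knockout group and Camp a lower one. Summed levels of the list were 2.43 to 127 FPKM in WT and 1008 to 1901 FPKM in the knockout libraries. None of the 14 was at 0 reads over all libraries, while S100a9, Retnlg, Cxcr2, Mmp8, Ngp and Cxcr1 had none in WT. Ly6g alone was at 124.4, 0.322 and 16.02 FPKM in the WT group and made up most of the sums of WT libraries 1 and 3. Of 11 tested macrophage and monocyte markers 8 were positive (1 at an unadjusted p below 0.05, 0 called), with sums of 169 to 497 FPKM in WT and 341 to 693 FPKM in the knockout libraries. The part of either cell type in the Serpinb1a and Serpina3 values was not tested.

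Granzymes and cathepsins overlapped between the groups for the most part. Of 5 tested granzymes and cytotoxic effector genes (13 listed) 0 were called by limma and 1, the granule proteoglycan gene Srgn, was higher at an unadjusted p below 0.05. Gzmb, the target of Serpinb9 and Serpina3n, was at 34.5, 11.4 and 1.02 FPKM in the WT group against 16.1, 20.8 and 13.2 FPKM in the knockout group. Like Serpina3f, Serpina3g and Serpina9, it was highest among the WT libraries in library 1, and summed cytotoxic lymphocyte markers were at 84.8, 36.6 and 5.37 FPKM in the WT group against 50.3 to 73.7 FPKM in the knockout libraries. Their part in the serpin values was not tested. Of 14 lysosomal cathepsins and related enzymes, 0 were called and 0 had an unadjusted p below 0.05, with 10 positive and 4 negative log2 fold changes. Of 8 tested complement genes 0 were called and 0 had an unadjusted p below 0.05.

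The list of epithelial trypsin-like proteases held 1 called gene. Prss22 (tryptase epsilon) was at 0, 0.229 and 0 FPKM in the WT group against 9.04, 20.7 and 11.3 FPKM in the knockout group (log2 fold change 3.70, SE 0.32, limma adjusted p = 0.0157). Of the 11 tested genes of this list, 2 (Prss22 and Prss27) were higher and 1 (Prss23) lower at an unadjusted p below 0.05. Of 12 epithelial markers 10 had positive log2 fold changes (1 at an unadjusted p below 0.05), with sums of 3213 to 46917 FPKM in WT and 10949 to 21377 FPKM in the knockout libraries. Car1 alone was at 117, 31511 and 456 FPKM in the WT group and made up most of the sum of WT library 2. None of the 12 markers was at 0 reads, and the epithelial mean was lowest in WT library 3, as were Serpinb1a, Serpinb5 and Serpinb6a. The part of epithelial content in these serpin values was not tested.

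Of 18 tested inhibitors outside the serpin fold (34 listed) 0 were called by limma, while at an unadjusted p below 0.05 there were 7 higher and 3 lower. Timp1, which inhibits matrix metalloproteinases, was at 0.768, 1.62 and 0.871 FPKM in the WT group against 5.09, 5.59 and 9.12 FPKM in the knockout group (log2 fold change 1.85, SE 0.28, limma adjusted p = 0.0752). Wfdc21 and the stefin gene Stfa2l1 had 0 reads in WT and 88 and 170 reads in the knockout libraries.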

How the data were processed

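Per the labels' protocols, colons were flash frozen, Trizol was used to extract RNA, and an NEBNext Ultra kit turned total RNA into libraries. Bowtie 0.12.2 is listed per the submitters' processing notes, beside the builds hg38 and mm8, without saying what each was for. The authors deposited 1 table of FPKM values, with gene lengths and coordinates per the file headers. The counting tool and strand setting were not given. Coordinates of all 61 members were identical in GENCODE M21, so they are given as GRCm38.

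Multiplying FPKM by gene length gave whole steps in each library (100% of values within 0.01), from which read numbers were recovered. Limits of 3 reads cover counting error only. No pair of libraries agreed within sampling noise (chi-square per gene of 60.7 or more).

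Genes averaging 1 FPKM or more were tested as log2(FPKM + 1), which understates the change of low genes, with limma 3.58.1 in R 4.3.3 (mean trend, two-sided, Benjamini-Hochberg adjustment over 12668 genes, threshold 0.05). An exact two-sided permutation test of 3 against 3 libraries cannot go below p = 0.1, which is what it gave for each tested member whose groups did not overlap. The values of 1 low member are not reported here. All tested members are named; low members were named after their values were seen, and list genes by smallest p or as known serpin targets. The members and lists were chosen with earlier results of these data known. Fits were tested on simulated data with independent noise and an equal spread in all libraries. The real libraries differ in spread, so no result here rests on that test. Alternatives were a pseudocount of 0.1, no filter, a mean of at least 5, quantile normalization, TPM, leaving out each library, a weight per library, voom and a replicate block. Sequences are from RefSeq, and 52 of 61 members were found there. Tables and plots used pandas 2.3.3, matplotlib 3.10.9 and numpy 2.4.6 under Python 3.11.15.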

Additional observations from a re-analysis of the deposited data

How the results depend on the processing

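Over 14 alternatives, 9 of the 12 tested serpin genes kept the direction of their log2 fold change in each setting that tested them. Serpina3f was the 1 member that gained a call (without WT library 1). Directions turned for 3 genes. Serping1 was at -0.20 after quantile normalization, -0.011 with a weight per library and between -0.28 and 0.37 with 1 library left out. Serpinb9 was at 0.052 in TPM and between -0.23 and 0.11 with 1 library left out (0.00457 without WT library 1, 0.0234 without Il10 knockout library 1). Serpine2 was at 0.021 with a weight per library and between -0.91 and 0.33 with 1 library left out.

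With 1 library left out, genes called across the table numbered 4 to 29 against 23, serpin genes called 0 to 1, the serpin median was 0.45 to 0.91, and genes called in the fixed lists numbered 2 to 5 against 3. Without WT library 1, WT library 3, Il10 knockout library 2 and Il10 knockout library 3 the table held 12, 5, 4 and 7 called genes. The weights were 2.76, 0.198 and 0.465 in the WT group and 1.01, 2.62 and 1.49 in the knockout group, so WT library 1 dominated the weighted WT group. Genes called were 4 without a filter, 46 in TPM, 331 with weights and 2 with voom. In the lists they were 5 with a pseudocount of 0.1, 7 in TPM, 17 with weights and 1 with voom. Without a filter, 25 of 37 members with reads were higher, 12 had groups that did not overlap, and the median was 0.057. The median was 1.49 at a mean of at least 5, by the construction of fewer genes. In TPM 4 members had no overlap, and the median of all genes moved from 0.04 to 0.15. The cause of the other changes was not tested.

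The replicate block called 7 genes and no serpin. Whether the numbers pair the libraries could not be decided from 3 libraries per group. Deviations of same-numbered libraries correlated at -0.15, 0.18 and 0.40 across genes. WT libraries 2 and 3 correlated best with the knockout library of their own number, and WT library 1 did not. For members with only a few reads, differences were not detectable at this depth.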
